A study of Macaca mulatta with 4 samples.

Results

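Transcription factors that mark the layers of the cerebral cortex were followed in prefrontal cortex of infant rhesus macaques, to see whether the layers sampled differed between libraries. They are CUX1 and CUX2 of the upper layers, RORB of layer 4, FEZF2, BCL11B, TBR1, TLE4 and FOXP2 of the deep layers, and NEUROD6 of excitatory neurons. Of these 9 genes, 7 were found by symbol among the 33618 genes counted, and CUX1 was found under its older symbol CUTL1, so 8 are described. TLE4 was not analysed here. The 8 genes all passed the filter on low counts, as did 17693 genes in all.

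RNA was sequenced in 4 libraries from wild type animals, 2 labelled control (agent none) and 2 labelled sevoflurane, an inhaled anaesthetic. The treatment protocol in the labels describes inhalation of sevoflurane at about 2.5 to 3% for 4 hours on 3 occasions, near postnatal day 7 and 14 and 28 days later, with prefrontal cortex removed right after the last. Nothing is stated of the age or handling of control animals, of the layers or white matter a sample held, or of whether each library is a different animal. P-values therefore reflect the spread among the libraries, part of which may be technical.

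The cortex of primates is built of 6 layers whose excitatory neurons differ in their targets. Upper-layer neurons connect mainly with other cortical areas, layer 4 receives input from the thalamus, layer 5 holds neurons that project to the brainstem and spinal cord, and layer 6 holds neurons that project to the thalamus. Each of these identities is set up before birth by transcription factors that, in mouse, repress one another: FEZF2 and BCL11B specify subcerebral neurons, and TBR1 represses FEZF2 in layer 6. Many of these factors stay expressed after birth and are used as layer markers. A piece of cortex taken closer to the pia or closer to the white matter would hold different shares of the layers.

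No layer factor differed between the groups by the test used. Of the 8 factors, 0 were called by edgeR's quasi-likelihood test at an adjusted p under 0.05, against 0.599% of all tested genes. At an unadjusted p under 0.05 there were also 0 of 8, against 9.92% of all tested genes. DESeq2 and limma-voom called 0 of them too. Libraries of the groups overlapped for 7 of the 8 factors. FOXP2 was the exception, with both sevoflurane libraries above both controls, an arrangement that 20.8% of all tested genes had, and 41.2% had groups that did not overlap in either direction. For the 7 factors other than FOXP2, the 95% interval of the log2 fold change lay within -1 and 1, so a 2-fold difference in either direction lay outside it.

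**Figure D1:**
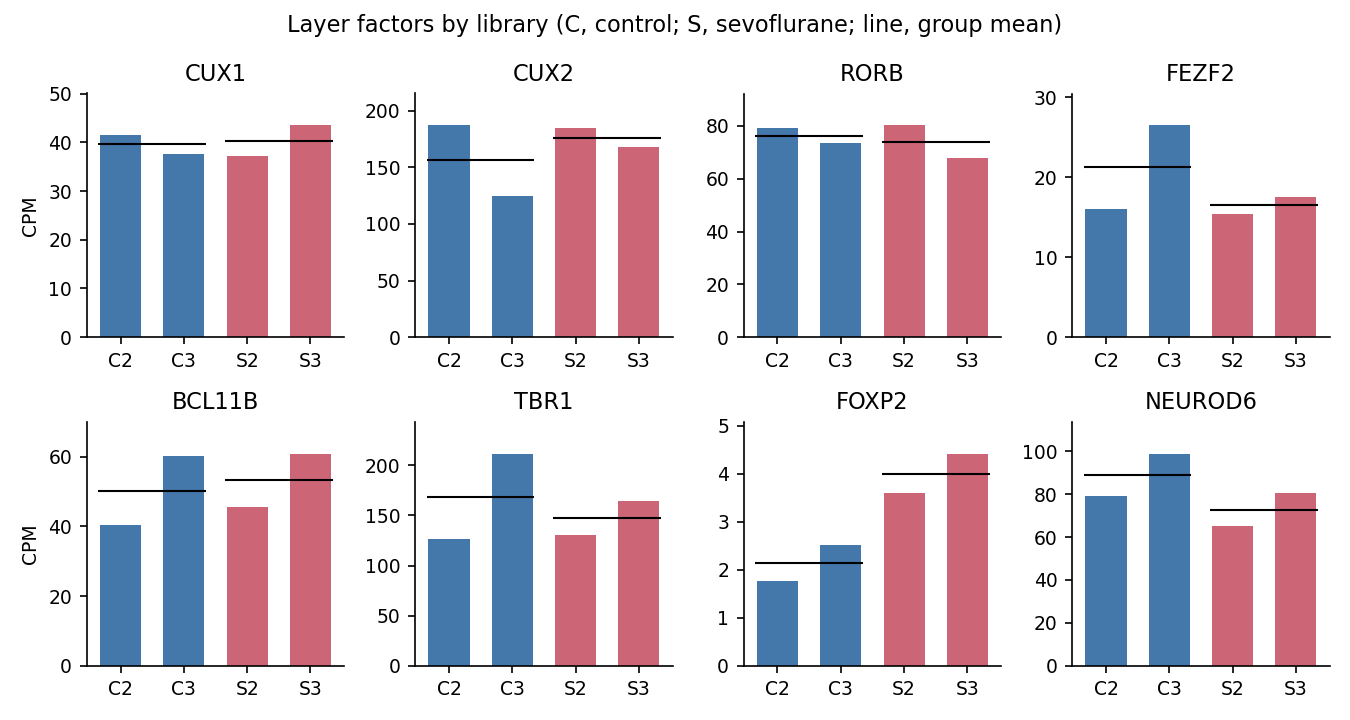
Expression of the 8 layer factors in each library, in CPM (read counts scaled to a common library size after TMM normalisation), with bars for libraries (C2 and C3, control replicates 2 and 3, S2 and S3, sevoflurane replicates 2 and 3) and a line at the mean of each group. The largest gaps for CUX2 and TBR1 lie between the control replicates (187 against 125 and 126 against 212 CPM). For FEZF2, control replicate 3 (26.5 CPM) stands above control replicate 2 (16.1 CPM) and both sevoflurane libraries. FOXP2 alone has both sevoflurane libraries above both controls.

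CUX2 is a homeodomain protein of upper-layer neurons that, in mouse, promotes their dendrites and spines together with CUX1. Its level was 187 and 125 CPM in control replicates 2 and 3, and 185 and 168 CPM in sevoflurane replicates 2 and 3. Control replicate 3 was thus the lowest of the libraries, and control replicate 2 was level with sevoflurane replicate 2. Group means were 156 ± 43.9 CPM in controls and 176 ± 11.99 CPM after sevoflurane (SD, n = 2 libraries per group). The log2 fold change, sevoflurane against control, was 0.17 (SE 0.18, 95% interval -0.24 to 0.58, edgeR adjusted p = 0.837). It turned to -0.09 without control replicate 3.

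CUX1, its paralogue, had 41.6 and 37.7 CPM in control replicates 2 and 3 and 37.2 and 43.5 CPM in sevoflurane replicates 2 and 3. The 4 libraries lay close together and the groups overlapped. Its log2 fold change was 0.02 (SE 0.17, 95% interval -0.36 to 0.41), and it was -0.04 without control replicate 3 and -0.09 without sevoflurane replicate 3. CUX1 is expressed in many cell types beside upper-layer neurons, which limits it as a layer marker in bulk tissue.

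RORB, an orphan nuclear receptor of layer 4, had 79.2 and 73.5 CPM in control replicates 2 and 3, and 80.2 and 67.7 CPM in sevoflurane replicates 2 and 3. Sevoflurane replicate 3 was the lowest and sevoflurane replicate 2 the highest, so the spread within that group spanned the controls. Sevoflurane against control gave -0.05 on the log2 scale (SE 0.15, 95% interval -0.38 to 0.29), with 0.01 without control replicate 2 and 0.07 without sevoflurane replicate 3.

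Among the deep-layer factors, TBR1 was the one with the highest counts. TBR1 is a T-box protein of layer 6 neurons. Its level was 126 and 212 CPM in control replicates 2 and 3, and 130 and 165 CPM in sevoflurane replicates 2 and 3. The sevoflurane libraries both lay between the controls. TBR1 thus had a fold change (log2) of -0.19 (SE 0.22, 95% interval -0.70 to 0.32, edgeR adjusted p = 0.856). Its sign rested on control replicate 3, without which it was 0.23.

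FEZF2, a zinc finger protein that specifies subcerebral projection neurons in mouse, had 16.1 and 26.5 CPM in control replicates 2 and 3 and 15.5 and 17.6 CPM in sevoflurane replicates 2 and 3. Control replicate 3 stood above the other libraries, which lay within 15.5 to 17.6 CPM. For FEZF2 the fold change (log2) was -0.36 (SE 0.26, 95% interval -0.95 to 0.23, edgeR adjusted p = 0.733), and 0.04 without control replicate 3.

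BCL11B, also called CTIP2, acts downstream of FEZF2 in corticospinal neurons in mouse, and is also expressed in striatal neurons and in some interneurons. It had 40.3 and 60.1 CPM in control replicates 2 and 3, and 45.5 and 60.8 CPM in sevoflurane replicates 2 and 3. In each group replicate 3 was the higher, and the groups overlapped almost wholly. For BCL11B the fold change (log2) was 0.09 (SE 0.22, 95% interval -0.41 to 0.59), with -0.18 without control replicate 2 and -0.14 without sevoflurane replicate 3.

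FOXP2, a forkhead protein of layer 6 and of striatal neurons, was the scarcest of the factors, with 18 and 19 reads in control replicates 2 and 3 and 42 and 52 reads in sevoflurane replicates 2 and 3. These counts correspond to 1.76 and 2.52 CPM in controls and 3.59 and 4.41 CPM after sevoflurane. Both sevoflurane libraries were above both controls, but the means rest on few reads. The log2 fold change was 0.91 (SE 0.47, 95% interval -0.14 to 1.96, unadjusted p = 0.0804 and adjusted p = 0.584 by edgeR), so it did not pass. On the fold scale that is 1.88, with an interval from 0.909 to 3.90. It stayed above 0 with each library left out in turn, between 0.66 and 1.18. TBR1, FEZF2 and BCL11B did not share this arrangement.

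NEUROD6, a basic helix-loop-helix protein of differentiated excitatory neurons, had 79.3 and 98.9 CPM in control replicates 2 and 3, and 65.1 and 80.4 CPM in sevoflurane replicates 2 and 3. Sevoflurane replicate 2 was the lowest and control replicate 3 the highest, and the other libraries differed by little. The log2 fold change was -0.29 (SE 0.17, 95% interval -0.67 to 0.09, edgeR adjusted p = 0.648). With 1 library left out it was -0.13 without control replicate 3, -0.15 without sevoflurane replicate 2, -0.44 without control replicate 2 and -0.45 without sevoflurane replicate 3.

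**Figure D2:**
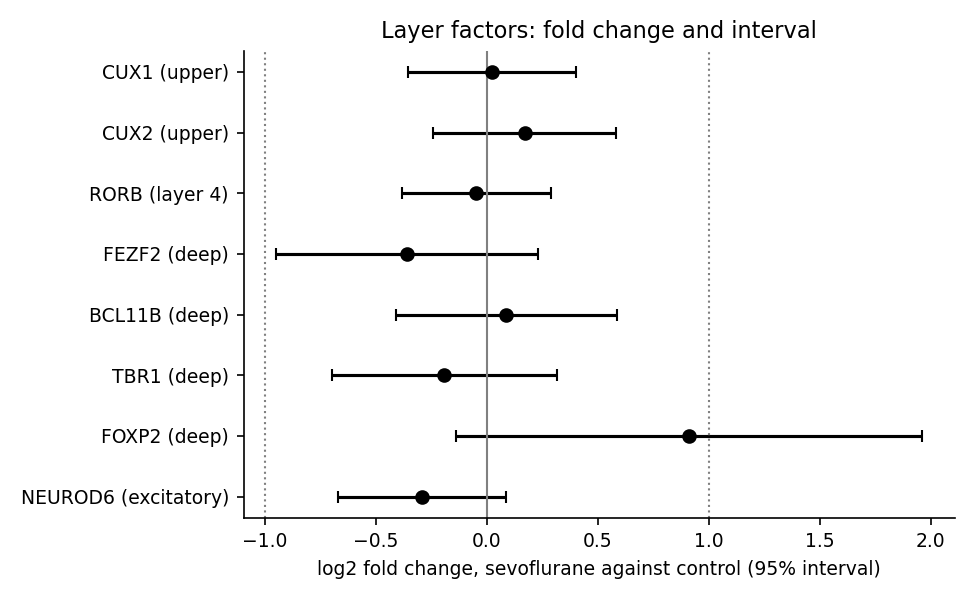
Log2 fold change of each layer factor, sevoflurane against control, as points with 95% intervals from the edgeR fit (2 libraries per group), with dotted lines at a 2-fold change. Each interval includes 0, and the interval of FOXP2, from -0.14 to 1.96, is the one that reaches past a dotted line.

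For the 7 factors other than FOXP2, the larger of the differences within a group exceeded the difference between the groups. For every factor but CUX1, the differences within the 2 groups had the same direction. In each group replicate 3 had more of all 4 deep-layer factors than replicate 2, by 0.48 to 0.75 on the log2 scale in controls (FOXP2 0.48, BCL11B 0.57, FEZF2 0.71, TBR1 0.75) and by 0.18 to 0.42 after sevoflurane (FEZF2 0.18, FOXP2 0.28, TBR1 0.34, BCL11B 0.42). Each group likewise had less CUX2 and RORB in replicate 3, with differences of -0.58 and -0.11 in controls and -0.14 and -0.24 after sevoflurane. NEUROD6 went with the deep-layer factors (0.32 and 0.30). CUX1 did not keep 1 direction, with -0.14 in controls and 0.23 after sevoflurane. Between the controls, a difference at least as large as that of TBR1 in either direction was seen in 4.55% of the 10869 genes with a mean of at least 10 CPM, and one as large as those of FEZF2, CUX2 and BCL11B in 5.36%, 10.3% and 10.7%. For RORB and FOXP2 the shares between the controls were 73.5% and 16.5%. The sevoflurane libraries differed less in CUX2 and the deep-layer factors. Shares there were 9.15% for BCL11B, 14.3% for TBR1, 19.5% for FOXP2, 25.1% for RORB, 36.8% for FEZF2 and 47.8% for CUX2. These are comparisons of single libraries and were not tested.

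**Figure D3:**
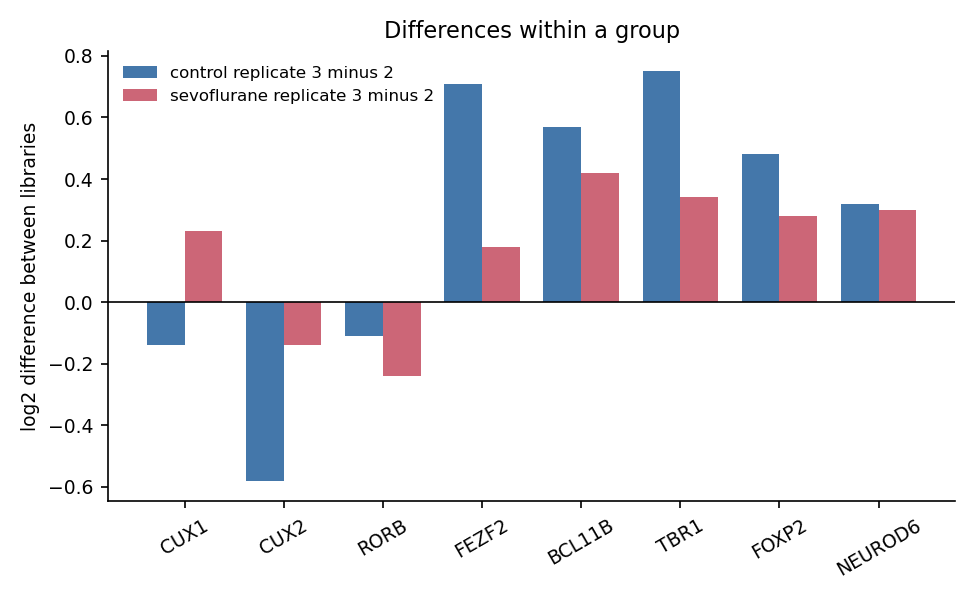
Log2 difference between the 2 libraries of a group (replicate 3 minus replicate 2) for each layer factor, with bars for control and for sevoflurane. FEZF2, BCL11B, TBR1, FOXP2 and NEUROD6 are above 0 in each group, CUX2 and RORB are below 0 in each, and CUX1 has opposite signs.

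The ratio of an upper-layer to a deep-layer factor within a library does not depend on how libraries are scaled. Reads of CUX2 per read of TBR1 numbered 1.49 in control replicate 2 (exact 95% binomial interval 1.38 to 1.60) and 0.591 in control replicate 3 (0.545 to 0.641). After sevoflurane they numbered 1.42 in replicate 2 (1.33 to 1.51) and 1.02 in replicate 3 (0.955 to 1.08). Intervals cover counting error only, and since reads are not corrected for gene length the ratio compares libraries, not the abundance of the genes. The sevoflurane libraries thus lay between the controls. CUX2 per FEZF2 was 11.6 and 4.72 in control replicates 2 and 3, beside 11.9 and 9.54 in sevoflurane replicates 2 and 3, and RORB per TBR1 was 0.629 and 0.347 against 0.615 and 0.411. Of the 12 pairs of CUX1, CUX2 or RORB with FEZF2, BCL11B, TBR1 or FOXP2, all 12 had a lower ratio in control replicate 3 than in control replicate 2, and 11 had a lower ratio in sevoflurane replicate 3 than in sevoflurane replicate 2, the exception being CUX1 with FEZF2 (2.40 and 2.48). These pairs share genes and are not independent. The groups overlapped in 10 of the 12 pairs, and the other 2 were CUX1 and RORB with FOXP2, where the ratios were higher in controls.

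Averaged over the factors, the balance of upper-layer (CUX1, CUX2, RORB) against deep-layer (FEZF2, BCL11B, TBR1, FOXP2) expression, as a log2 deviation from the mean of the 4 libraries, was 0.48 in control replicate 2 and -0.42 in control replicate 3, beside 0.15 and -0.21 in sevoflurane replicates 2 and 3. The sevoflurane libraries lay inside the range of the controls. Group means were 0.03 ± 0.64 in controls and -0.03 ± 0.25 after sevoflurane (SD, n = 2 libraries per group), a difference of -0.06 that is smaller than the spread within either group. Leaving out FOXP2, the factor with the fewest reads, gave 0.19, and leaving out 1 library gave from -0.51 without control replicate 3 to 0.39 without control replicate 2. With 2 libraries against 2, an exact two-sided permutation test cannot give a p below 0.333, so none was made.

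Further layer genes, in lists that hold none of the factors, had the same order of libraries within each group. Over 20 tested genes of the upper layers and layer 4 and 26 of layers 5 and 6, upper minus deep was 0.17 and -0.33 in control replicates 2 and 3, beside 0.32 and -0.15 in sevoflurane replicates 2 and 3. The groups overlapped here as well. Each gene has equal weight in these means, and some had few reads. PDGFD of the upper layers had 25 and 1 reads in control replicates 2 and 3, and HTR2C of layer 5 had 19 and 1. These 2 genes move the balance between the controls in opposite directions. Of the 14 tested layer 6 genes, 12 were higher in control replicate 3 than in control replicate 2 and 10 were higher in sevoflurane replicate 3 than in sevoflurane replicate 2. All tested genes had 49.2% and 49.6% higher in these comparisons. HS3ST4, a heparan sulphate sulfotransferase of layer 6 neurons, had 8.49 and 18.6 CPM in control replicates 2 and 3 and 6.92 and 10.95 CPM in sevoflurane replicates 2 and 3. NXPH4, a neurexophilin of the deepest layer, had 11.3 and 19.2 CPM in controls and 9.65 and 15.3 CPM after sevoflurane. Of the 7 tested layer 4 genes, 5 were lower in control replicate 3 than in control replicate 2, and all 7 were lower in sevoflurane replicate 3 than in sevoflurane replicate 2. The 13 upper-layer genes were split, with 7 lower and 6 higher in control replicate 3 (median difference -0.03 on the log2 scale) and 9 lower and 4 higher in sevoflurane replicate 3 (-0.07). Of the 12 layer 5 genes, 10 were higher and 2 lower in control replicate 3 (median 0.09), and 7 were higher and 5 lower in sevoflurane replicate 3 (0.08). CALB1, the calcium-binding protein calbindin found in upper-layer neurons and interneurons, had 83.9 and 49.7 CPM in controls and 67.8 and 49.8 CPM after sevoflurane. RELN, the secreted protein reelin, made by cells of layer 1 and by interneurons and reported as a target of TBR1 in mouse, had 352 and 133 CPM in controls and 260 and 256 CPM after sevoflurane. Its log2 fold change between the groups was 0.09, with -0.45 without control replicate 3 and 0.95 without control replicate 2, where edgeR gave an adjusted p = 0.00586. HS3ST4, NXPH4, CALB1 and RELN were picked with their values in view.

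Marker RNA of fibroblasts and mature oligodendrocytes also differed between these libraries. Meningeal and perivascular fibroblasts lie at the pia and around vessels, and mature oligodendrocytes are densest in white matter and deep layers. Summed levels of the 14 fibroblast markers were 637 and 421 CPM in control replicates 2 and 3 and 1729 and 571 CPM in sevoflurane replicates 2 and 3, and 12 of the 14 were lower in control replicate 3 than in control replicate 2, as were all 14 in sevoflurane replicate 3 against sevoflurane replicate 2. Summed levels of the 16 mature oligodendrocyte markers were 9555 and 15060 CPM in controls and 2499 and 3737 CPM after sevoflurane, with 16 of 16 higher in control replicate 3 than in control replicate 2 and 14 of 16 higher in sevoflurane replicate 3 than in sevoflurane replicate 2. Of the fibroblast sums, PTGDS alone held 354 and 279 CPM in control replicates 2 and 3 and 1041 and 322 CPM in sevoflurane replicates 2 and 3. No marker in these lists was at 0 in any library. Within each group, the library with the higher share of deep-layer factors was thus also the one with more oligodendrocyte and less fibroblast RNA. Between the groups, 12 of the 16 oligodendrocyte markers were called lower after sevoflurane and 4 were not called. Of all tested genes, 0.599% were called in either direction. The 16 markers had a median log2 fold change of -1.81, while the layer balance overlapped. MBP, the myelin basic protein, was among the 12, with 3186 and 6222 CPM in control replicates 2 and 3 against 798 and 1223 CPM after sevoflurane. COL1A2, a fibroblast collagen, had 75.8 and 33.2 CPM in controls and 166 and 52.6 CPM after sevoflurane and was not called. All 14 fibroblast markers had a positive fold change, against 49.7% of all tested genes. The median of the 14 was 1.02, and ran from 0.33 without sevoflurane replicate 2 to 1.62 without control replicate 2. Leaving out replicate 3 gave 0.51 for the control and 1.54 for the sevoflurane library. Of the 14, 7 had an unadjusted p under 0.05 by edgeR, against 9.92% of all tested genes. The transporter SLC6A13 was the 1 that edgeR called (1.43, SE 0.25, edgeR adjusted p = 0.0465), a call lost by limma-voom (0.0668), with library size alone (0.0605), with no filter (0.0885), without control replicate 2 (0.0708) or 3 (0.0804) and without sevoflurane replicate 2 (0.117). Of 12 astrocyte markers only GFAP was called, and it was lower (-1.41, SE 0.16, edgeR adjusted p = 0.00928). The list had 4 markers with a positive fold change. Of 12 microglia markers only CX3CR1 was called, and it was lower (-1.03, SE 0.14, edgeR adjusted p = 0.02). There 3 markers had a positive fold change, C1QA (0.66), C1QB (0.67) and C1QC (0.37). Of 10 endothelial markers 0 were called. Whether the layers sampled play a part in these group differences was not tested, and fewer cells of a type and less RNA per cell cannot be told apart in bulk samples.

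**Figure D4:**
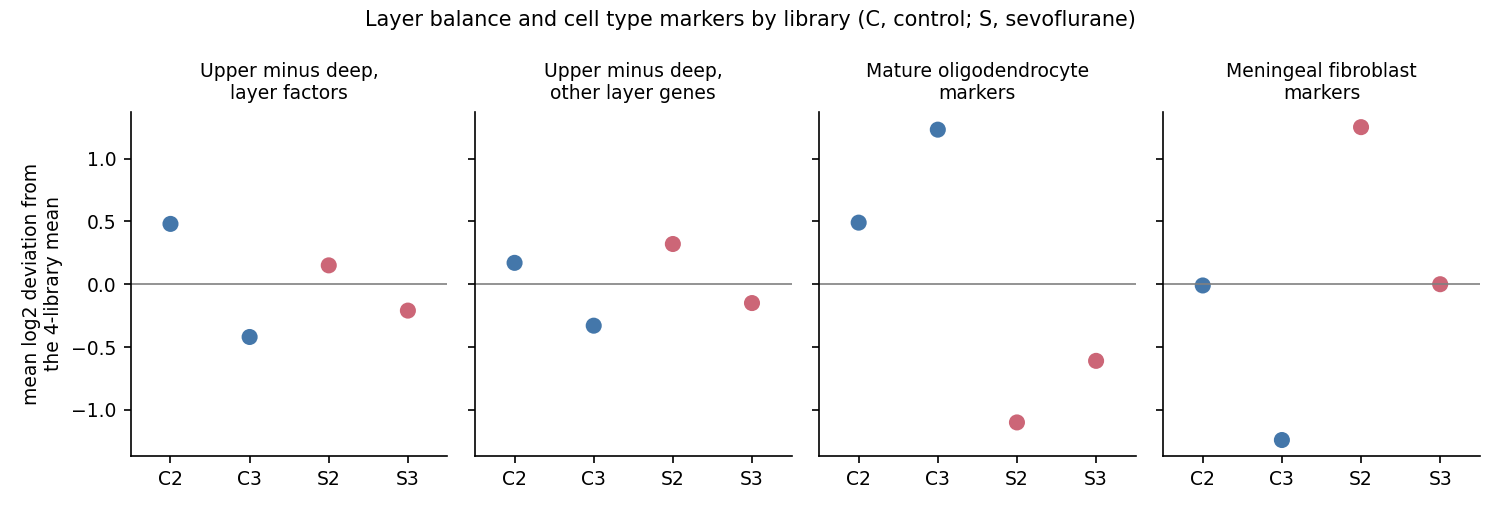
Mean log2 deviation from the 4-library mean for, from left to right, the upper minus deep balance of the layer factors, the same for other layer genes, mature oligodendrocyte markers and meningeal fibroblast markers, with a point for each library (C, control; S, sevoflurane, with the replicate number). In each group, replicate 3 lies below replicate 2 in layer balance and in fibroblast markers and above it in oligodendrocyte markers, and between groups the oligodendrocyte markers are apart (0.49 and 1.23 against -1.10 and -0.61), while fibroblast markers of control replicate 2 and sevoflurane replicate 3 are nearly level (-0.01 and 0.00).

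Between the groups, none of the other layer genes was called by edgeR or limma-voom, or by DESeq2 among those it gave an adjusted p. Of all tested genes, edgeR called 0.599%. The 13 tested upper-layer genes had a median log2 fold change of -0.13, the 7 of layer 4 had 0.49, the 12 of layer 5 had -0.04 and the 14 of layer 6 had -0.32, beside -0.002 over all tested genes. At an unadjusted p under 0.05 there were 1, 3, 1 and 6 genes in these lists, against 9.92% of all tested genes. In layer 4, PLCH1, a phospholipase C, had 65.9 and 59.5 CPM in control replicates 2 and 3 and 91.0 and 84.9 CPM in sevoflurane replicates 2 and 3 (log2 fold change 0.49, SE 0.14, edgeR adjusted p = 0.251). IL1RAPL2, a receptor accessory protein, had 0.63 (SE 0.23, edgeR adjusted p = 0.391). In layer 6, NTSR1, the neurotensin receptor of corticothalamic neurons, had 9.47 and 8.89 CPM in controls and 13.8 and 22.5 CPM after sevoflurane (0.98, SE 0.28, edgeR adjusted p = 0.24). Without sevoflurane replicate 2 it had 1.29 and passed (edgeR adjusted p = 0.0306), and without sevoflurane replicate 3 it had 0.59 (1.0). CCN2, a matricellular protein of the deepest neurons, had 32.0 and 37.5 CPM in controls and 24.2 and 22.4 CPM after sevoflurane (-0.58, SE 0.18, edgeR adjusted p = 0.297). Of the 14 layer 6 genes, 3 had a positive fold change, against 49.7% of all tested genes. Groups did not overlap in 8, of which 6 had controls above, beside 41.2% of all tested genes in either direction. Of the 6 at an unadjusted p under 0.05, only NTSR1 was higher. NTNG2, NR4A2, CCN2, SEMA3E and RXFP1 were lower, with both controls above both sevoflurane libraries. The sign of the layer 6 median rested on control replicate 3, and the median was 0.10 without it. That of layer 4 was -0.01 without sevoflurane replicate 2. In the upper layers COL5A2 had -0.37 (SE 0.15) and LHX2 -0.26 (SE 0.16), and in layer 5 CRYM had 0.42 (SE 0.15) and DEPTOR -0.54 (SE 0.30).

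**Figure D5:**
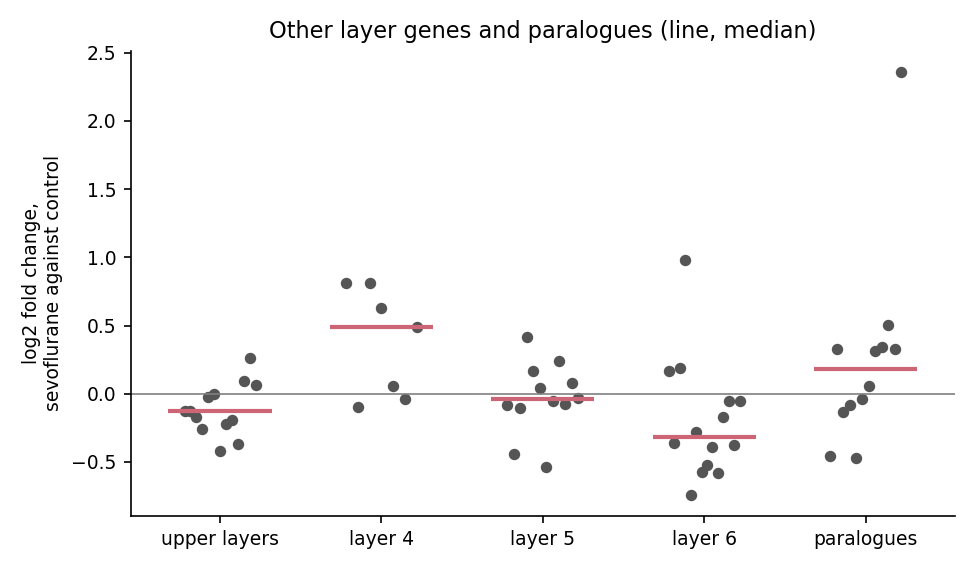
Log2 fold change, sevoflurane against control, of each tested gene in the lists of other upper-layer, layer 4, layer 5 and layer 6 genes and of paralogues of the layer factors (points), with the median of each list as a line. Medians lie between -0.32 in layer 6 and 0.49 in layer 4, and no gene shown was called.

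Paralogues of the layer factors were looked up to see whether a relative differed where the factor did not. Of 16 listed, 12 passed the filter on low counts and 0 were called by edgeR, against 0.599% of all tested genes. At an unadjusted p under 0.05 there were 5, against 9.92% of all tested genes. The listed paralogues that did not pass the filter had at most 3 reads in any library. BCL11A, the relative of BCL11B that is found in callosal and other cortical neurons, had 128 and 160 CPM in control replicates 2 and 3 and 105 and 105 CPM in sevoflurane replicates 2 and 3 (log2 fold change -0.46, SE 0.14, edgeR adjusted p = 0.299). Its groups did not overlap, as in 41.2% of all tested genes. Leaving out control replicate 2 gave -0.61 and passed (edgeR adjusted p = 0.0416), and leaving out control replicate 3 gave -0.29 (0.347). RORA had 0.33 (SE 0.13), TLE3, a Groucho corepressor, had -0.47 (SE 0.15), and NEUROD1 had 0.50 (SE 0.22). Of the most abundant relatives of the other factors, TLE5, a short Groucho protein, had -0.04 (SE 0.15), FOXP1, a forkhead protein of upper and deep layers, had 0.06 (SE 0.15), and NEUROD2 had 0.33 (SE 0.27).

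Partners and reported targets of the factors were also looked up. Of all tested genes, 0.599% were called and 49.7% had a positive fold change. At that share of calls, lists this short would hold few or none. Of 16 tested regulators of cortical projection neurons, 0 were called and 8 had a positive fold change, with a median of 0.01. SOX5, which controls the timing of deep-layer neurons in mouse, had 0.17 (SE 0.14), and BHLHE22 had 0.52 (SE 0.18, edgeR adjusted p = 0.341). Of 7 tested genes reported as targets of TBR1 or FOXP2, 0 were called, with a median of 0.09. CNTNAP2, a neurexin-family adhesion protein reported as a target of FOXP2, had 347 and 329 CPM in controls and 425 and 405 CPM after sevoflurane (0.30, SE 0.11, edgeR adjusted p = 0.414), and MEF2C had 0.22 (SE 0.13), with 0.42 without control replicate 2, where it passed (edgeR adjusted p = 0.0359), and 0.05 without control replicate 3 (0.84). SOX5 was picked with its value in view.

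Markers of cortical excitatory neurons were abundant in all 4 libraries. SLC17A7, the vesicular glutamate transporter of cortical neurons, had 814 and 1433 CPM in control replicates 2 and 3 and 1131 and 1175 CPM in sevoflurane replicates 2 and 3. Its level in control replicate 3 was the highest, as with TBR1, FEZF2 and NEUROD6. All 12 general neuron markers were higher in control replicate 3 than in control replicate 2, against 49.2% of all tested genes. Their median difference was 0.41 on the log2 scale. The deep-layer factors had a median of 0.64, and CUX2 and RORB were lower in control replicate 3. Single neuron markers ranged widely between the controls, with SLC17A7 (0.82) and NEFM (1.32) above the median of 0.41 and ENO2 (0.06) below it. In sevoflurane replicate 3 against sevoflurane replicate 2, 6 of the 12 were higher and 6 lower, with a median of 0.0. The deep-layer factors were all 4 higher there, with a median of 0.31. The part of neuron content in the differences of the layer factors was not tested. The 12 excitatory neuron markers had a median log2 fold change between the groups of 0.02, the 12 general neuron markers 0.13 and the 7 immature neuron markers -0.03. In each list 0 were called by edgeR, against 0.599% of all tested genes.

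BCL11B and FOXP2 also mark striatal neurons, and BCL11B and CUX2 some interneurons, so these cells were looked at beside them. Summed levels of the 11 tested striatal markers were 276 and 273 CPM in control replicates 2 and 3 and 290 and 295 CPM in sevoflurane replicates 2 and 3. Of these markers 0 were called, against 0.599% of all tested genes, and their median log2 fold change was 0.19. PPP1R1B, a phosphatase inhibitor of striatal projection neurons that deep cortical neurons also express, had 39.1 and 54.6 CPM in controls and 67.9 and 52.2 CPM after sevoflurane. DRD2, the dopamine D2 receptor, had 5.95 and 5.30 CPM against 10.8 and 12.6 CPM (1.05, SE 0.28, edgeR adjusted p = 0.193), and GPR6 had 1.56 and 2.92 CPM against 7.86 and 7.21 CPM (1.77, SE 0.41, edgeR adjusted p = 0.133). Of the striatal list, 1 gene, ISL1, had no reads in any library. Like FOXP2, DRD2 and GPR6 were thus low and higher in both sevoflurane libraries without passing the test. Of the 11 striatal markers 3 had this arrangement, beside 20.8% of all tested genes. The part of striatal tissue in the FOXP2 values was not tested. Of 17 interneuron markers 0 were called by edgeR, with a median of 0.09, and GAD1, which makes GABA, had 203 and 176 CPM in controls and 247 and 195 CPM after sevoflurane. The neuropeptide NPY had 46.0 and 75.2 CPM in controls against 29.6 and 38.7 CPM (-0.82, SE 0.24, edgeR adjusted p = 0.257), and the neuropeptide SST had 83.7 and 123 CPM against 70.8 and 63.2 CPM (-0.62, SE 0.19, edgeR adjusted p = 0.276). In both genes the 2 controls were above the 2 sevoflurane libraries. Of the 17 interneuron markers, 8 had groups that did not overlap, 4 with controls above and 4 with sevoflurane above. Groups did not overlap in 41.2% of all tested genes. NPY passed without control replicate 2 (-1.14, edgeR adjusted p = 0.0299) and without sevoflurane replicate 3 (-1.03, 0.0315), and had -0.43 (0.419) without control replicate 3. SST passed without control replicate 2 (-0.87, edgeR adjusted p = 0.0229), and had -0.32 (0.396) without control replicate 3.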

How the data were processed

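The deposited table holds raw counts of reads per gene, with 1 column per library, made by the authors. The submitters' processing notes name HISAT2 as the aligner. No source used here gives the counting program, genome build, annotation or strand setting, so overlapping and antisense genes and near-identical copies are uncertain. No genome or sequence table was used, and no coordinates are given.

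Libraries held between 7793757 counts (control replicate 3) and 11706115 (sevoflurane replicate 3). The test was run with edgeR 4.0.16 under R 4.3.3 (filterByExpr, at least 10 counts at the median depth and 15 in total, TMM factors, two-sided quasi-likelihood F test on group, Benjamini-Hochberg adjustment over 17693 genes, threshold 0.05). CPM are scaled by TMM, and log2 values of single libraries use a prior count of 2. SE and 95% intervals come from the fitted information matrix and the quasi-dispersion. The steps were tested on simulated counts. Of 215 listed genes, 207 matched by symbol, 2 by RefSeq gene number (assembly T2T-MMU8v2.0) and 3 by an older symbol, and 3 were not found.

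The factors and the gene lists were chosen with earlier results of these data known. Named by rule are the 8 factors, called list members or otherwise the 2 with the smallest p in each list, the most abundant paralogues and 6 defining markers, and some single-gene results are left out here. Others were picked with their values in view. No set test was made. Alternatives were other scaling (size factors as in DESeq2, or library size), other filters (none, or at least 1 CPM in 2 libraries with a mean of 5 CPM), other tests (DESeq2 1.42.0, limma-voom of limma 3.58.1), a block for the replicate number, and 1 library left out.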

Additional observations from a re-analysis of the deposited data

How the results depend on the processing

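No alternative called any of the 8 layer factors, while the count over all genes moved from 106 to 60 with no filter, 275 by DESeq2 and between 145 and 283 with 1 library left out (283 without control replicate 2, 271 without sevoflurane replicate 3, 202 without sevoflurane replicate 2). Of 87 log2 fold changes of the factors under alternatives, 78 kept their sign. The 9 that turned came from leaving out 1 library. They were CUX1 (-0.04 without control replicate 3, -0.09 without sevoflurane replicate 3, at most 0.14), CUX2 (-0.09 without control replicate 3, at most 0.49), RORB (0.01 without control replicate 2, 0.07 without sevoflurane replicate 3, at least -0.17), FEZF2 (0.04 without control replicate 3, at least -0.68), TBR1 (0.23 without control replicate 3, at least -0.52) and BCL11B (-0.18 without control replicate 2, -0.14 without sevoflurane replicate 3, at most 0.40). RELN had -0.45 without control replicate 3 and 0.95 without control replicate 2. FOXP2 had no value under the stricter filter and no adjusted p by DESeq2. With the replicate block 511 genes were called, none a layer factor. NTSR1 (0.94, adjusted p = 0.0322), NPY (-0.80, 0.00435) and SST (-0.60, 0.0267) were among those 511. Replicate numbers are not shown to pair the libraries: deviations of same-numbered libraries had a correlation across genes of 0.009. Leaving TLE4 out of the layer balance was not run, since it was not analysed here. With 2 libraries per group, FOXP2 is limited by its 18 to 52 reads, and differences inside the intervals of the other factors were not detectable.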
